A study of Mus musculus with 6 samples.

Results

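Mitosis and cytokinesis genes encode the proteins that take a cell from late G2 through chromosome segregation to the separation of the daughter cells. The set holds 49 genes, chosen by name for their role in division and found by symbol among the 21878 genes of the count table. It was read here in macrophages derived in culture from the bone marrow of wild-type C57BL/6 mice with 50 ng/mL of macrophage colony-stimulating factor. All of them shared medium for 48 h with LLC, a mouse lung carcinoma cell line, across a transwell membrane with pores of 0.4 µm. After a change of medium, 3 libraries were made from cells given β-elemene, a sesquiterpene from plants, at 100 µg/mL for 24 h, and 3 from cells given the same volume of PBS. The labels do not say whether replicates came from separate cultures or mice, so the p-values rest on the differences among these 6 libraries, and those may be technical in origin.

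Division is driven by cyclin-dependent kinase 1 with its A and B cyclins. Kinetochores then tie chromosomes to spindle microtubules, the spindle checkpoint holds back the anaphase promoting complex until every chromosome is attached, and the passenger complex, centralspindlin and a contractile ring complete the split. Transcripts of these genes peak together in G2 and M phase. Their promoters often carry a cell cycle genes homology region (CHR), bound by MuvB complexes that repress in resting cells (DREAM) or activate in dividing cells (with B-MYB and FOXM1), and nearby CCAAT boxes bound by NF-Y. Macrophages grown from marrow divide in response to macrophage colony-stimulating factor and stop dividing when strongly activated.

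The promoters are shown first because they are what most of the set shares beyond its role. The RefSeq table (GRCm38.p6) held promoters of 41 of the 49 genes, from 250 bases before to 50 bases after the start site; Ccna2, Cdc25c, Spc24, Tpx2, Smc4, Aurkb, Incenp and Kif20a had no entry. The CHR was searched as TTTGAA or TTCGAA and the NF-Y box as CCAAT, on both strands; TTCGAA reads the same on either strand, and neighbouring matches may share letters. A CHR match lay in 33 of 41 promoters (80.5%), against 16.6% of the 9246 tested genes with a promoter and 19.2% of all 32851 promoters of this length. A CCAAT match lay in 31 of 41 (75.6%), against 43.4% of the tested genes and 37.4% of all promoters, and both lay in 28 of 41 (68.3%), against 7.05% and 7.52%. A CHR match between 40 bases before and 50 bases after the start, a window chosen after the positions were seen, was present in 31 of 41 genes (75.6%) and in 372 of 9246 tested genes (4.02%). A match is a description of these letters and not a measured binding site. The stretches below are the 90 bases before the start site, 5′ to 3′ on the strand of the gene, with every match in capitals (ATTGG and TTCAAA are CCAAT and TTTGAA on the other strand). The first 6 genes fell and hold both motifs; Mad2l1 rose and Cks2 did not pass the test, and neither has a CHR match.
Cdc20 (chr4:118437344-118437433, minus strand): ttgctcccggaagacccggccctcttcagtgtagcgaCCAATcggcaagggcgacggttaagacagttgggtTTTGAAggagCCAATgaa
Espl1 (chr15:102296203-102296292, plus strand): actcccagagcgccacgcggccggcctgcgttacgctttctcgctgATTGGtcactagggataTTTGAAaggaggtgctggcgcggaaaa
Cdk1 (chr10:69352913-69353002, minus strand): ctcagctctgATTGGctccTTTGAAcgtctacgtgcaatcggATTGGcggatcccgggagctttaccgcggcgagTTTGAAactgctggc
Kif11 (chr19:37376292-37376381, plus strand): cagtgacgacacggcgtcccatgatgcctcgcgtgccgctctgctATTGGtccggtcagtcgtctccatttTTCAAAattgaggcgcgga
Top2a (chr11:99024190-99024279, minus strand): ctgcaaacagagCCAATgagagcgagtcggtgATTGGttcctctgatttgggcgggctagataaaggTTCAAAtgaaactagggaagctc
Prc1 (chr7:80294386-80294475, plus strand): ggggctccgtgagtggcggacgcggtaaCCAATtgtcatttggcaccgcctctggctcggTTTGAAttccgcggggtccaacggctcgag
Mad2l1 (chr6:66535131-66535220, plus strand): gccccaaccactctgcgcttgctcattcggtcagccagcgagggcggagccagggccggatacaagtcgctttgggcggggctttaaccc
Cks2 (chr13:51645142-51645231, plus strand): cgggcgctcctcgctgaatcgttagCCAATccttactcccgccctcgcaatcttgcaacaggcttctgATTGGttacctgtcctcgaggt
The 33 genes with a CHR match all fell, with a median log2 fold change of -2.41. Of the genes that fell and had a promoter, 6 had no CHR match anywhere from 250 bases before to 50 bases after the start. Ccnb1 and Cenpe, with CCAAT matches alone, fell by 2.06 and by 1.08 on the log2 scale. Ncaph, Nuf2, Nusap1 and Birc5, with none of the motifs in the whole promoter, fell as well. Among the 341 other tested genes with a CHR match near the start, 154 (45.2%) fell and 102 (29.9%) rose, against 40.1% and 36.7% of the 8864 without one. Of those 341 genes 10.6% fell at least 4-fold, against 6.54% of the 8864. Only the 49 genes were left out of these shares, and mitosis genes outside the set were not. In a list of 52 such genes, described below, 24 of the 42 with a promoter held a CHR match somewhere in it. Of the 52, 26 fell at least 4-fold. Their part in the 10.6% was not tested.

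**Figure D1:**
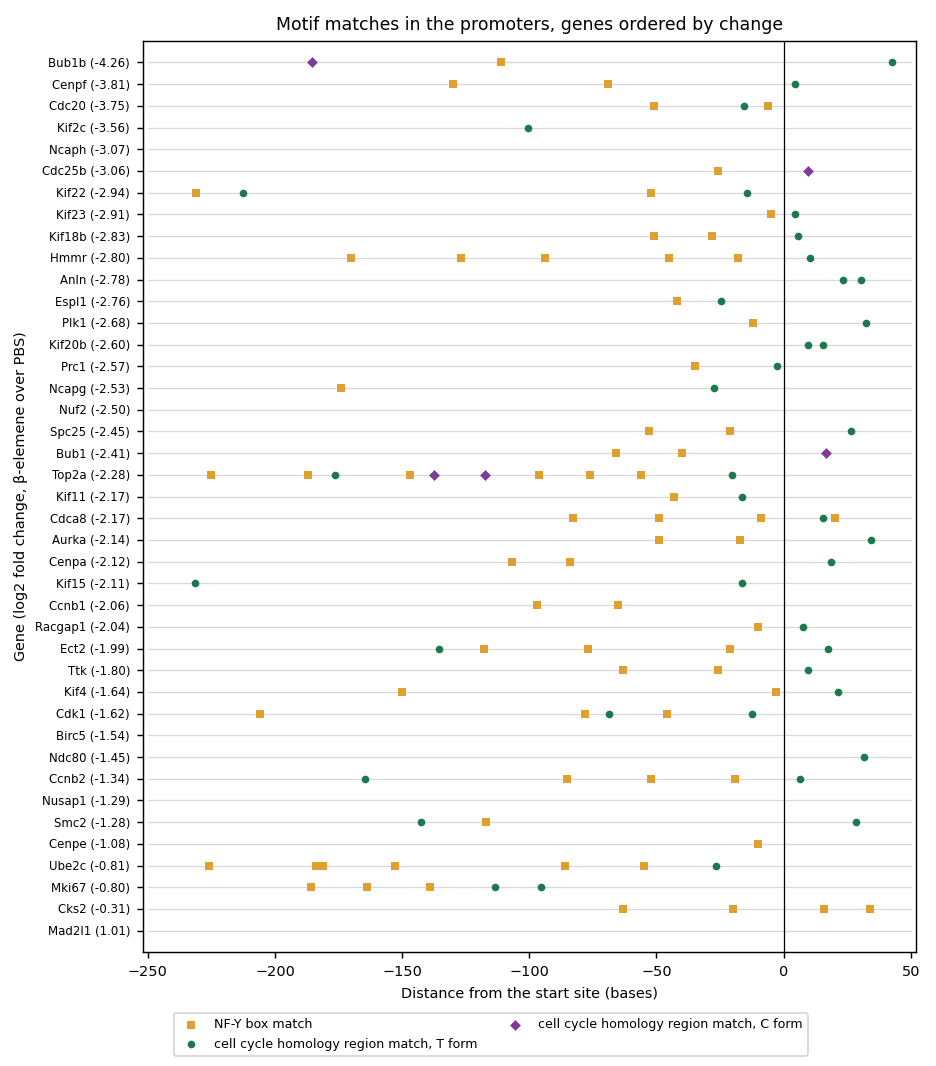
Motif matches in the promoters of the 41 genes, plotted by distance in bases from the first listed start site (the first transcribed base is 0), with genes ordered by their log2 fold change from the largest fall at the top to Mad2l1 at the bottom. Round and diamond marks are CHR matches and squares are CCAAT matches; CHR matches cluster around the start site in 31 genes, and the row of Mad2l1 is empty.

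β-elemene libraries held less of almost every gene of the set. Of 49 genes, all of which passed the filter on low counts, 46 fell, Tpx2 and Mad2l1 rose and Cks2 did not pass (edgeR quasi-likelihood test, Benjamini-Hochberg adjustment over 11459 genes). Of all genes tested, 40.2% fell and 36.6% rose. Falls of at least 2-fold were called in 41 of the 49 genes, against 18.3% of all genes, and falls of at least 4-fold in 30, against 7.22%. The 7 genes that fell at least 8-fold, against 3.12% of all genes, were Bub1b, Cenpf, Cdc20, Kif2c, Ccna2, Ncaph and Cdc25b. The median log2 fold change of the set was -2.17, against -0.06 for all genes tested. Every β-elemene library lay below every PBS library in 46 genes (42.0% of all genes tested) and above in 2 (37.9%). The genes of the set took 0.0244% to 0.0272% of all counts in the β-elemene libraries and 0.0761% to 0.0922% in the PBS libraries. Without Tpx2, Mad2l1 and Mki67 these shares were 0.0117% to 0.0138% and 0.0605% to 0.0737%. In bulk RNA, fewer dividing cells and less of each transcript per cell cannot be told apart.

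**Figure D2:**
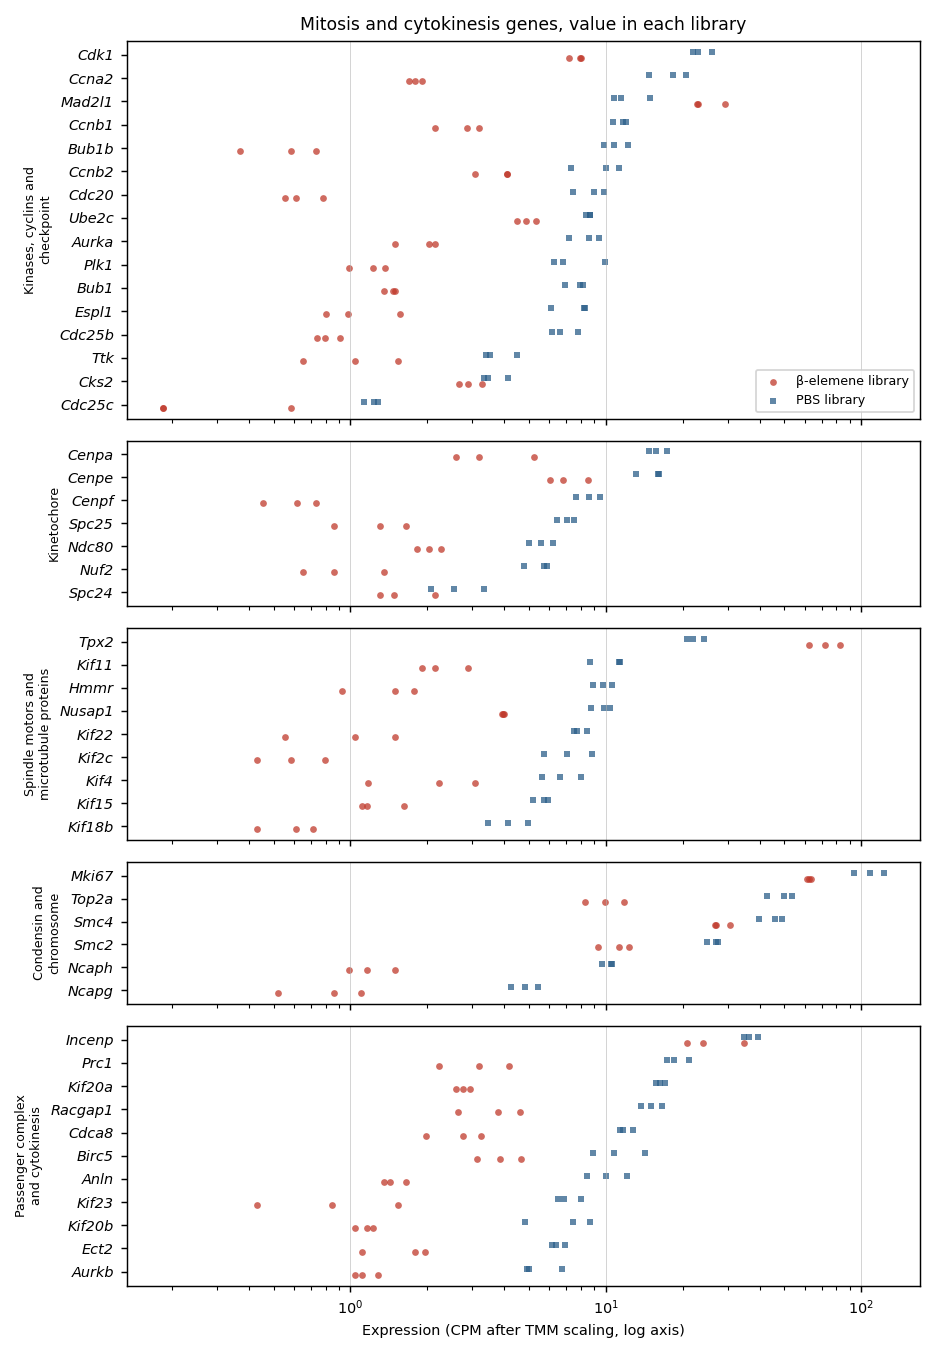
Expression of each of the 49 genes in each of the 6 libraries, in CPM after TMM scaling on a log axis, in 5 panels by class; circles are β-elemene and squares PBS libraries. The circles lie left of the squares in 46 rows, to the right in the rows of Tpx2 and Mad2l1, and overlap them in the row of Spc24.

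The scaling matters for the size of these values but little for their direction. TMM factors were 0.794 to 0.812 in β-elemene libraries and 1.24 to 1.26 in PBS libraries, and the totals of the 6 libraries were 18916844 to 20729887 counts. With library size alone the median of all genes moved by -0.64 and that of the set went to -2.80. Other size factors shift all genes by about the same amount. The distance between both medians, -2.11, was therefore bound to stay and is no test of the scaling. With library size alone 47 of the 49 genes fell and 2 rose, where 69.8% of all genes fell and 18.9% rose. A single count was worth 0.0387 to 0.0651 CPM (counts scaled to the TMM library size), so the levels of Bub1b with β-elemene rest on 6, 9 and 12 counts.

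Among the kinases, cyclins, phosphatases and checkpoint genes 14 of 16 fell, Mad2l1 rose and Cks2 did not pass, with a median log2 fold change of -2.10. Bub1b (chromosome 2), which encodes the checkpoint protein BUBR1, showed the largest fall of the set. It stood at 0.369, 0.586 and 0.736 CPM in β-elemene replicates 1, 2 and 3 and at 10.7, 9.83 and 12.2 CPM in PBS replicates 1, 2 and 3 (log2 fold change -4.26 with SE 0.22, edgeR adjusted p = 6.63e-10). The lowest PBS library was thus far above the highest β-elemene library, a gap repeated in Cdc20, Ccna2 and Cdc25b. Cdc20, the activator of the anaphase promoting complex that the checkpoint holds back, stood at 0.554, 0.781 and 0.613 CPM against 9.88, 7.46 and 8.97 CPM (log2 fold change -3.75 with SE 0.22, edgeR adjusted p = 2.95e-09). Ccna2, which encodes cyclin A2, stood at 1.78, 1.69 and 1.90 CPM against 20.5, 14.7 and 18.4 CPM (log2 fold change -3.31, SE 0.17). Cdc25b, a phosphatase that switches on CDK1, fell by 3.06 on the log2 scale (SE 0.21), from 6.84 ± 0.82 to 0.816 ± 0.0882 CPM (mean ± SD, n = 3).

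The estimates for the mitotic kinases were smaller than those of the 4 genes above. Plk1, the polo-like kinase of mitotic entry, stood at 0.984, 1.37 and 1.23 CPM against 6.82, 6.25 and 9.90 CPM (log2 fold change -2.68, SE 0.24), with PBS replicate 3 above the other PBS libraries. Bub1, a checkpoint kinase, fell by 2.41 (SE 0.17), Aurka, the spindle pole kinase, fell by 2.14 (SE 0.18), and Ttk, the kinase that starts checkpoint signalling, fell by 1.80 (SE 0.28). Cdk1, the master kinase of mitosis, had the highest PBS level in CPM in this class, at 26.0, 22.0 and 23.0 CPM, against 7.2, 7.94 and 7.97 CPM with β-elemene (log2 fold change -1.62 with SE 0.10, edgeR adjusted p = 6.68e-09). Its cyclin partners Ccnb1 and Ccnb2 fell by 2.06 (SE 0.15) and 1.34 (SE 0.19). Espl1, which encodes the cohesin-cutting protease separase, fell by 2.76 (SE 0.24). Ube2c, a ubiquitin-conjugating enzyme of the anaphase promoting complex, fell by 0.81 (SE 0.13). Cdc25c, another CDK1-activating phosphatase, had 3, 9 and 3 counts against 32, 33 and 29 and fell by 1.94 (SE 0.43, edgeR adjusted p = 0.0011).

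The exceptions in this class were the small CDK1-binding protein gene Cks2 and the checkpoint gene Mad2l1. Cks2 stood at 3.26, 2.67 and 2.88 CPM with β-elemene and at 4.14, 3.34 and 3.47 CPM with PBS (log2 fold change -0.31 with SE 0.19, edgeR adjusted p = 0.139). The groups did not overlap, but only a narrow gap parted them. With the upper quartile and with library size alone Cks2 passed as lower, at -0.63 and -0.95. Mad2l1 (chromosome 6), which encodes the MAD2 protein that captures CDC20 when chromosomes are unattached, stood at 22.8, 29.2 and 22.9 CPM with β-elemene and at 14.9, 10.7 and 11.4 CPM with PBS (log2 fold change 1.01 with SE 0.14, edgeR adjusted p = 3.39e-05). Its raw counts overlapped, with 370, 449 and 374 against 385, 276 and 293, so the size of its rise depends on scaling. Under library size alone the log2 fold change was 0.38 (edgeR adjusted p = 0.0277; 1.04e-11 to 0.0277 over the alternatives).

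All 7 kinetochore genes fell, with a median of -2.12. Cenpf, a large protein of the outer kinetochore, stood at 0.615, 0.456 and 0.736 CPM against 9.45, 7.65 and 8.62 CPM (log2 fold change -3.81 with SE 0.22, edgeR adjusted p = 2.05e-09). Cenpa (chromosome 5), which encodes the histone H3 variant that marks centromeres, had the highest PBS level in CPM of this class and stood at 2.58, 3.19 and 5.21 CPM against 17.3, 14.8 and 15.7 CPM (log2 fold change -2.12, SE 0.19). β-elemene replicate 3 was the highest of its group for Cenpa, yet remained far below the PBS libraries. Cenpe, the kinetochore kinesin, fell by 1.08 (SE 0.14).

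The NDC80 complex is the main link from kinetochore to microtubule, and its 4 subunit genes fell by different amounts. Nuf2 and Spc25 fell by 2.50 (SE 0.24) and 2.45 (SE 0.21), and Ndc80 fell by 1.45 (SE 0.18). Spc24 stood at 1.48, 1.30 and 2.15 CPM against 3.33, 2.06 and 2.53 CPM (log2 fold change -0.68 with SE 0.27, edgeR adjusted p = 0.035). Here β-elemene replicate 3 lay above PBS replicate 2, so the groups overlapped. The call of Spc24 did not hold with DESeq2 (adjusted p = 0.063), nor with edgeR without β-elemene replicate 1 (adjusted p = 0.117) or replicate 2 (adjusted p = 0.126), or without PBS replicate 1 (adjusted p = 0.166) or replicate 3 (adjusted p = 0.0551).

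Of 9 genes for spindle motors and microtubule-binding proteins 8 fell and Tpx2 rose, with a median of -2.17. Kif2c, the kinesin that takes microtubules apart at centromeres, stood at 0.431, 0.586 and 0.797 CPM against 8.83, 5.75 and 7.06 CPM (log2 fold change -3.56 with SE 0.27, edgeR adjusted p = 4.16e-08). Kif22 and Kif4, chromosome-bound kinesins, fell by 2.94 (SE 0.23) and 1.64 (SE 0.26). Kif18b, a kinesin of microtubule plus ends, fell by 2.83 (SE 0.28), and Hmmr, a spindle-associated protein, fell by 2.80 (SE 0.20). Kif11, the kinesin that pushes spindle poles apart, stood at 1.91, 2.15 and 2.88 CPM against 11.4, 8.70 and 11.3 CPM (log2 fold change -2.17, SE 0.18). Kif15, its partner in holding the spindle open, fell by 2.11 (SE 0.20), and Nusap1, a microtubule-bundling protein, fell by 1.29 (SE 0.13).

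Tpx2 (chromosome 2, 152847964 to 152895321, GRCm38.p6), which encodes the spindle assembly factor that activates Aurora A, ran against its class. It stood at 72.3, 62.6 and 83.0 CPM with β-elemene and at 24.1, 20.9 and 21.9 CPM with PBS (log2 fold change 1.70 with SE 0.10, edgeR adjusted p = 1.28e-08). Its raw counts did not overlap either, with 1175, 962 and 1353 against 623, 537 and 562, and it passed as higher under every alternative run, at 1.06 to 1.82. Per kilobase of exon Tpx2 was the most abundant gene of the set with β-elemene, at 15.5 ± 2.17 CPM per kilobase (SD, n = 3), and the ninth with PBS, at 4.77 ± 0.357.

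All 6 genes of condensin and the chromosome fell, with a median of -1.78. Ncaph and Ncapg, regulatory subunits of condensin I, fell the most, with Ncaph at 0.984, 1.5 and 1.16 CPM against 10.5, 10.6 and 9.67 CPM (log2 fold change -3.07, SE 0.17) and Ncapg at -2.53 (SE 0.25). The ATPase subunits of the same ring fell less, Smc2 by 1.28 (SE 0.10) and Smc4 by 0.68 (SE 0.09). Smc4 stood at 26.9, 26.7 and 30.6 CPM against 49.2, 39.6 and 45.8 CPM, still without overlap. Top2a, the topoisomerase that untangles sister chromatids, stood at 8.30, 9.96 and 11.8 CPM against 53.8, 42.7 and 49.8 CPM (log2 fold change -2.28 with SE 0.12, edgeR adjusted p = 6.41e-09). Mki67, which encodes the proliferation antigen Ki-67, had the highest PBS level of the set per kilobase, 10.8 ± 1.45 CPM per kilobase. Mki67 stood at 63.7, 61.4 and 62.5 CPM against 109, 93.9 and 123 CPM (log2 fold change -0.80 with SE 0.09, edgeR adjusted p = 3.71e-06), a fall of 1.74-fold where that of Top2a was 4.87-fold.

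All 11 genes of the chromosomal passenger complex and cytokinesis fell, with a median of -2.27. In the passenger complex, which corrects faulty attachments and then moves to the midzone, the kinase gene Aurkb fell by 2.27 (SE 0.22), Cdca8, which encodes borealin, fell by 2.17 (SE 0.16), and Birc5, which encodes survivin, fell by 1.54 (SE 0.20). The scaffold gene Incenp had the highest PBS level in CPM of this class and changed least, at 23.9, 34.7 and 20.7 CPM against 39.3, 34.8 and 36.5 CPM (log2 fold change -0.48 with SE 0.17, edgeR adjusted p = 0.0343). The groups did not overlap, but β-elemene replicate 2 all but reached PBS replicate 2. This call did not hold without a filter on low counts (adjusted p = 0.0952), nor without β-elemene replicate 1 (adjusted p = 0.107) or replicate 3 (adjusted p = 0.062), or without PBS replicate 1 (adjusted p = 0.0919) or replicate 3 (adjusted p = 0.0703).

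Genes of the central spindle and ring fell by 1.99 to 2.91. Kif23, the motor subunit of centralspindlin, showed the largest fall in the class, at 0.431, 0.846 and 1.53 CPM against 7.98, 6.49 and 6.86 CPM (log2 fold change -2.91, SE 0.28). Its partner Racgap1 fell by 2.04 (SE 0.16) and Ect2, the RhoA activator that centralspindlin recruits, fell by 1.99 (SE 0.20). Anln, which encodes the ring scaffold anillin, fell by 2.78 (SE 0.19), and Prc1, which bundles midzone microtubules, fell by 2.57 (SE 0.17). Kif20a and Kif20b, midzone and midbody kinesins, fell by 2.57 (SE 0.12) and 2.60 (SE 0.26). Kif20a varied little within groups, at 2.58, 2.93 and 2.76 CPM against 16.3, 15.7 and 17.1 CPM.

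**Figure D3:**
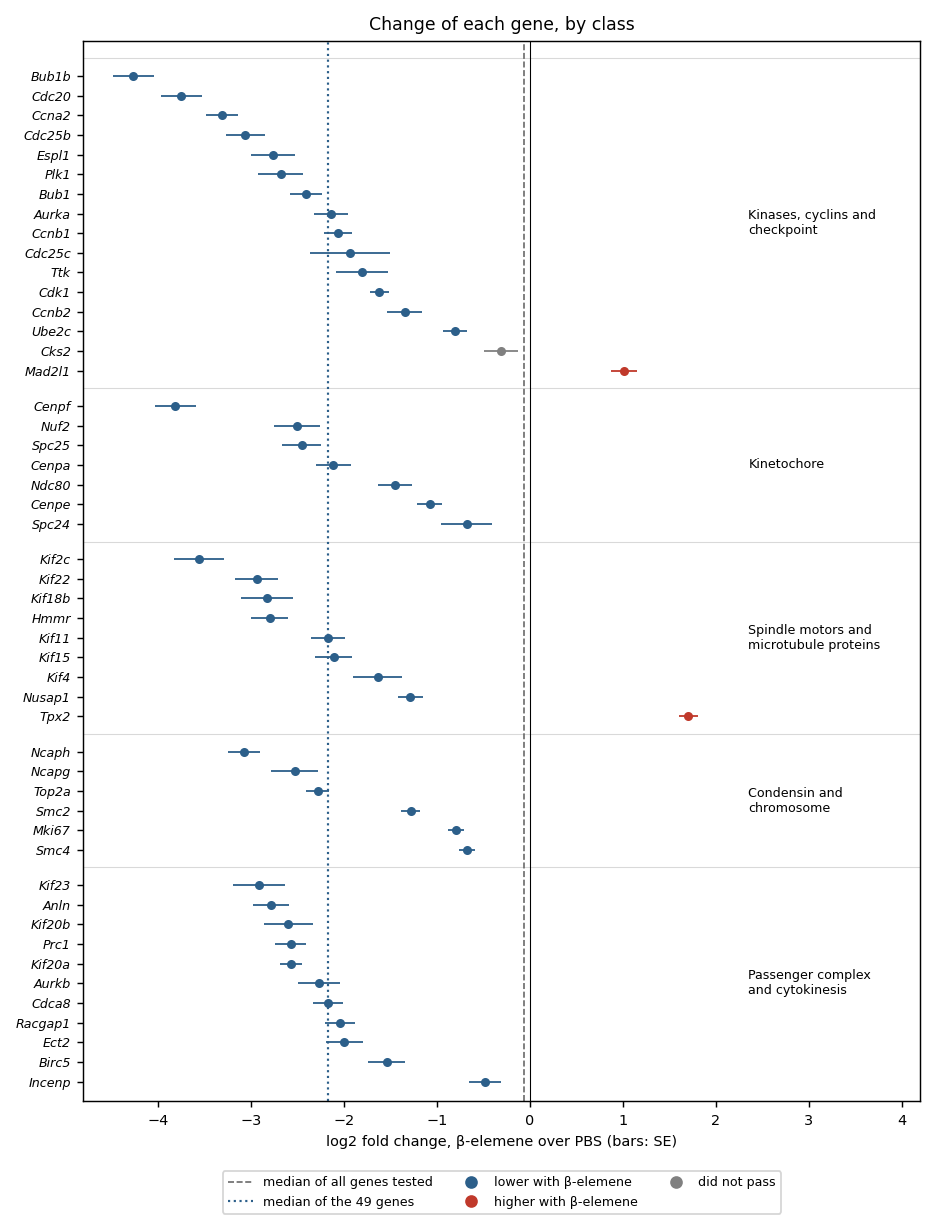
Log2 fold change of each gene, β-elemene over PBS, with its SE, grouped by class; the dashed line is the median of all genes tested (-0.06) and the dotted line that of the 49 genes (-2.17). Blue points fell, red points rose and the grey point (Cks2) did not pass; falls run from -0.48 (Incenp) to -4.26 (Bub1b).

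Ratios of raw counts between partner genes do not depend on how libraries are scaled, and 12 were compared, with pairs picked after their values were seen. For each of them the exact two-sided permutation test gave p = 0.10 (0.10 after Benjamini-Hochberg adjustment over the 12), the smallest value that 3 against 3 libraries allow. With pairs picked in this way these p-values carry no weight, and the adjustment does not cover pairs passed over. The ratios are given as a description. Ncaph counts per Smc4 count were 0.0365, 0.0561 and 0.0381 with β-elemene and 0.213, 0.268 and 0.211 with PBS, 5.36-fold lower. The groups did not overlap. Ncaph per Ncaph2, the kleisin gene of condensin I per that of condensin II, was 8.04-fold lower, with 0.0151, 0.0235 and 0.0168 against 0.144, 0.154 and 0.140. Aurkb per Incenp was 3.38-fold lower and Spc25 per Spc24 was 3.52-fold lower. Cdc20 counts per Mad2l1 count were 0.0243, 0.0267 and 0.0267 with β-elemene and 0.662, 0.696 and 0.785 with PBS, 27.5-fold lower. Aurka per Tpx2, the kinase per activator, was 14.5-fold lower, with 0.0298, 0.0239 and 0.0244 against 0.388, 0.345 and 0.393. Top2a per Mki67 was 2.84-fold lower, and Top2a per Top2b, its paralog that resting cells also express, was 3.67-fold lower. Ccnb1 per Cdk1 moved least, 1.38-fold lower, with β-elemene replicate 1 at 0.444 just below PBS replicate 1 at 0.449.

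**Figure D4:**
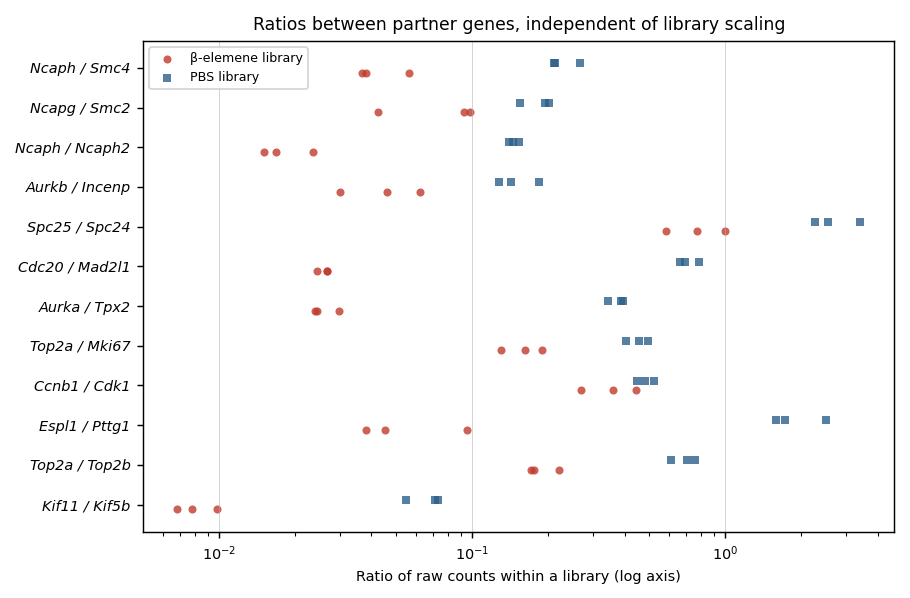
Ratio of raw counts between 12 pairs of genes in each library, on a log axis; circles are β-elemene and squares PBS libraries. In all 12 rows the circles lie left of the squares, nearly touching for Ccnb1 per Cdk1 and farthest apart for Espl1 per Pttg1 (34.6-fold) and Cdc20 per Mad2l1 (27.5-fold).

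The genes of the set also moved together between libraries of the same group. PBS replicate 2 was the lowest PBS library for 40 of 49 genes, against 37.8% of all genes tested, and PBS replicate 1 was the highest for 32, against 28.2%. β-elemene replicate 1 was the lowest of its group for 29 genes, against 32.4% of all genes, and replicate 3 the highest for 29, against 31.7%. The median deviation from the group mean was -0.14 on the log2 scale in PBS replicate 2 and 0.12 in PBS replicate 1, and -0.12 and 0.13 in β-elemene replicates 1 and 3. These shared shifts are small beside the median difference of -2.17 between groups. Without any 1 library 44 to 46 genes fell and 2 rose.

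Other genes of mitosis were read from a list of 52 that are not in the set. Of these 39 fell, 4 rose and 9 did not pass, with a median of -2.02. Of 303 tested genes outside the set that Gene Ontology places under cell division, a list added after the data were seen, 134 (44.2%) fell and 112 (37.0%) rose, with a median of -0.11, close to the 40.2%, 36.6% and -0.06 of all genes. Aspm, a spindle pole protein, fell by 4.15 (SE 0.25), Nek2, a centrosome kinase, fell by 3.61 (SE 0.30), Sgol1, the protector of centromeric cohesion, fell by 3.39 (SE 0.43), and Cdca2 fell by 3.34 (SE 0.27). The largest rises were in Pttg1, which encodes securin, the inhibitor of separase, at 19.7 ± 2.90 CPM against 3.97 ± 0.734 CPM with PBS (2.31 on the log2 scale, SE 0.15, edgeR adjusted p = 1.09e-08), and in Trip13, the ATPase that remodels MAD2, at 19.8 ± 2.95 CPM against 4.16 ± 0.537 CPM with PBS (2.25, SE 0.14, edgeR adjusted p = 5.17e-09). Both remained higher with library size alone, at 1.67 and 1.61. Zwint and Ckap5 rose by 0.27 and 0.19 with TMM but fell by 0.36 and 0.44 with library size alone.

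The machinery that mitosis shares with other cell functions had calls in both directions with TMM, at shares that for the anaphase promoting complex lay near those of all genes (40.2% lower, 36.6% higher). Of 17 subunits and regulators of the anaphase promoting complex 7 (41.2%) fell, 7 rose and 3 did not pass, with a median of 0.00. With library size alone 15 fell and 1 rose, where 69.8% of all genes fell and 18.9% rose. Its inhibitor Fbxo5 fell by 2.46 (SE 0.26), while Ube2s, its chain-elongating enzyme, rose by 1.14 (SE 0.06) and by 0.50 with library size alone. Of 15 other condensin and cohesin genes 9 fell, 3 rose and 3 did not pass, and with library size alone 14 fell and 1 rose. Ncapd2, the remaining subunit of condensin I, fell by 3.26 (SE 0.16), the condensin II genes Ncapd3 and Ncapg2 fell by 1.34 (SE 0.13) and 1.28 (SE 0.16), and the cohesin gene Stag2 rose by 1.2 (SE 0.06). Ncaph2, the kleisin of condensin II, did not pass, at -0.09 (edgeR adjusted p = 0.187), and was lower with library size alone (-0.73). Of 18 tested transport kinesins and light chains 8 fell and 9 rose, with a median of 0.29, and with library size alone 4 rose. Kif5c and Kif3c rose by 2.44 and 2.17 while Klc4 fell by 3.19. Of 29 DNA replication genes 20 (69.0%) fell and 3 (10.3%) rose, with a median of -1.20, so this list fell more often than all genes. Clspn and Mcm2 fell by 3.60 (SE 0.32) and 2.90 (SE 0.14). Rfc3 and Mcm10 rose by 1.80 and 1.31, and by 1.17 and 0.67 with library size alone.

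Counts for the regulators of the mitotic programme depended on the scaling. Of 20 genes for MuvB, retinoblastoma and E2F proteins, B-MYB and FOXM1, 10 (50%) fell, 5 (25%) rose and 5 did not pass with TMM, with a median of -0.31, against 40.2% and 36.6% of all genes. With the upper quartile 16 fell and 3 rose, where 57.0% of all genes fell and 25.7% rose. With library size alone 17 fell and 1 rose, where 69.8% of all genes fell and 18.9% rose. Rbl1, which encodes the DREAM pocket protein p107, stood at 169 ± 18.2 CPM against 14.1 ± 1.18 CPM with PBS and rose (3.58 on the log2 scale, SE 0.09, edgeR adjusted p = 1.86e-12), and by 2.94 with library size alone. Its relative Rbl2, which encodes p130, fell by 1.34 (SE 0.09). E2f2, Tfdp2 and Mybl2, which encodes B-MYB, fell by 3.46 (SE 0.48), 2.98 (SE 0.22) and 1.93 (SE 0.30), and Foxm1 fell by 0.97 (SE 0.14). The core MuvB genes Lin37, Lin52, Lin54 and Rbbp4 did not pass with TMM and were lower with library size alone (-0.89 to -0.61), and Lin9 rose by 0.68 (SE 0.12) with TMM but did not pass with library size alone (0.05). Of 16 genes outside the set, listed for control of mitotic entry and of other cell cycle steps, 8 fell, 4 rose and 4 did not pass. Ccnf and Gmnn fell by 2.81 (SE 0.18) and 2.04 (SE 0.17), and Cdc14a and Cdkn1a, which encodes the kinase inhibitor p21, rose by 1.97 (SE 0.17) and 1.5 (SE 0.08).

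**Figure D5:**
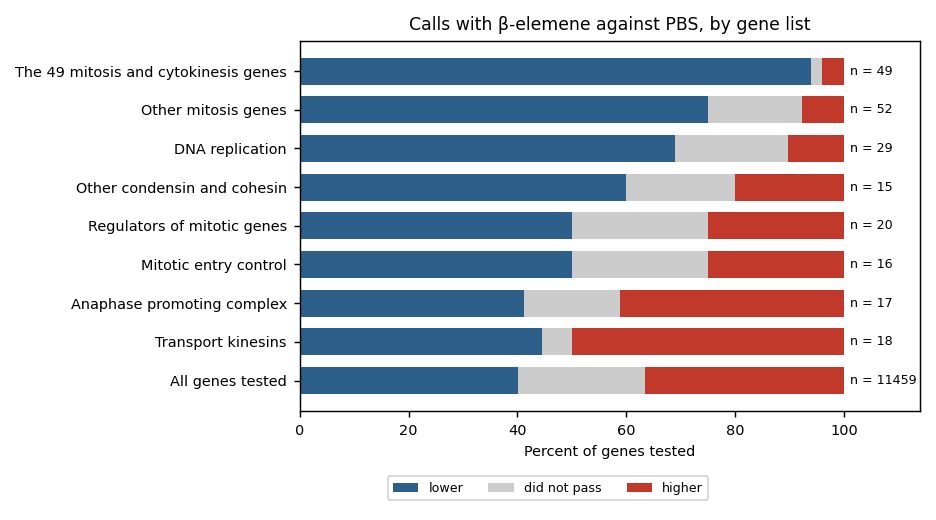
Percent of tested genes called lower (blue), not called (grey) or higher (red) with β-elemene in the set of 49 genes, in 7 other lists and among all 11459 genes tested. The blue part covers 93.9% of the 49 genes, 75% of the other mitosis genes, 69.0% of the replication genes and 40.2% of all genes.

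Beside the lists that follow, 40.2% of all genes tested fell and 36.6% rose. All 14 macrophage markers were tested, of which 6 fell and 8 rose, with a summed level of 18659 to 19148 CPM with β-elemene and 14808 to 15875 CPM with PBS. Lyz2, lysozyme, was the most abundant of them, at 9203 ± 398 against 6776 ± 378 CPM, and it was lower with library size alone (-0.19). Of 14 epithelial and carcinoma markers 1 (Muc1) was tested, and it fell by 1.69 (SE 0.37), with counts summing to 20 with β-elemene and 105 with PBS. The sum of this list was 0.586 to 0.674 CPM with β-elemene and 1.24 to 1.72 CPM with PBS, lower without overlap. Muc1 made up most of this sum, so it mainly repeats that gene and rests on few counts. Krt19, Cldn4, Sftpc, Sftpb, Nkx2-1 and Krt5 had 0 counts throughout. Of 9 stromal markers 7 were tested, of which 3 fell and 1 rose. The sum of all 9 was 31.3 to 38.0 CPM with β-elemene and 28.4 to 34.0 CPM with PBS. Col3a1 counts summed to 2 with β-elemene and 376 with PBS, and Pdgfrb rose by 3.06. Of 18 markers of marrow progenitors and granulocyte or erythroid precursors 8 were tested, of which 2 fell and 5 rose. The sum of all 18 was 41.7 to 47.3 CPM with β-elemene and 17.7 to 20.6 CPM with PBS. Gfi1, which encodes a transcriptional repressor expressed in granulocyte precursors, rose by 5.51. Mpo, myeloperoxidase, fell, with counts summing to 7 with β-elemene and 119 with PBS, and Hba-a1 and Hbb-bs had 0 counts with β-elemene. Of 10 lymphoid markers 1 (Cd4) was tested and did not pass. The part of such other cells in the falls of the mitosis genes was not tested.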

How the data were processed

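mRNA of 6 macrophage samples was sequenced as stranded libraries, per the labels' protocols. Reads were handled with HISAT2 2.2.1.0, and builds mm10 and GRCm38.p6 are listed, per the submitters' processing notes. Which tool counted reads, and with which strand setting, is not given in the sources used here. The deposited table holds raw counts, 1 column for each library. Genes were matched by symbol; 27 symbols turned into dates by a spreadsheet were restored by gene identifier. Filtering (filterByExpr, minimum count 10, minimum total 15) left 11459 genes, scaled by TMM and tested with edgeR 4.0.16 in R 4.3.3 (robust glmQLFit, glmQLFTest, group only, adjusted p under 0.05). SE comes from the log2 fold change and F. Levels per kilobase use the union of GENCODE M21 exons of each gene, which is not the annotation of the counts. The genes, lists and alternatives were chosen with earlier results of these data known. Genes outside the set were named by size of change among passing genes whose mean reached 1 CPM, with exceptions chosen after their values were seen. The exceptions were Rbl2, Foxm1, the MuvB genes, Zwint, Ckap5, Ncaph2, Top2b and cell type markers other than Lyz2. Libraries of a group differed by more than counting noise (chi-square per degree of freedom 3.79 to 13.2), so none was taken as another deposited again; this does not show that they are biological replicates. The pipeline was tested on simulated counts. Alternatives were other size factors and filters, DESeq2 1.42.0, limma-voom (limma 3.58.1), a replicate block and leaving out each library.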

Additional observations from a re-analysis of the deposited data

How the results depend on the processing

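The counts of falling and rising genes in the set stayed within 1.5 times under every alternative run: 44 to 47 fell and 2 rose. Among refits of single genes of the set, 674 kept direction and call, 10 lost the call (Spc24 and Incenp, given above) and 2 gained it (Cks2), with no change of sign. The replicate block left 46 falling and 2 rising; same-numbered libraries did not deviate together (correlations -0.03, 0.06 and 0.02), so the shared numbers were not read as pairs. The other lists depend on the scaling. With library size alone, 2 other mitosis genes rose, 14 condensin and cohesin genes fell and 1 rose, 15 genes of the anaphase promoting complex fell and 1 rose, 17 regulators fell and 1 rose, and 4 transport kinesins rose. With the upper quartile, 2 other mitosis genes, 2 genes of the anaphase promoting complex and 3 regulators rose, and 16 regulators fell. Of all genes, 69.8% fell and 18.9% rose with library size alone, and 57.0% fell and 25.7% rose with the upper quartile. Depth limits genes such as Cdc25c, with 3 to 9 counts per β-elemene library.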
